A study of Mus musculus with 7 samples.

Results

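The calreticulin and calnexin cycle, in which newly made glycoproteins fold in the endoplasmic reticulum (ER), was followed across mouse long-term haematopoietic stem cells that carry a mutant calreticulin gene and those that do not. Its members were taken by gene symbol as the 7 genes Calr, Canx, Uggt1, Ganab, Prkcsh, Mogs and Man1b1, of 19649 genes in the deposited gene table. All 7 passed the filter on low values, as did 16047 genes in all. The mutant group (Calr fl/fl, Calr del52/del52, MxCre) had 3 libraries and the wild-type group (Calr +/+, MxCre) had 4. Every mouse carried MxCre, a Cre recombinase under the interferon-responsive Mx1 promoter, which acts in blood cells but also in other tissues such as liver. Every mouse also received pI:pC, a double-stranded RNA that raises interferon and so switches Cre on, and no other treatment was given. The strain is labelled as a CALR knock-in crossed with MxCre mice. Cells that carried CD150, Sca-1 and Kit but neither CD48 nor lineage markers were sorted 14 days after induction began. The sources used here give neither the ages of the mice, nor the number of mice per library, nor the sequence of the knock-in allele. The p-values below therefore measure the spread between these libraries, which may be technical in part.

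In the ER, newly made proteins receive a branched sugar that ends in glucose. Glucosidase I and glucosidase II trim the glucose residues, and the lectin chaperones calreticulin and calnexin hold the glycoprotein while a single glucose remains. When glucosidase II removes that last glucose the protein is let go, and UDP-glucose:glycoprotein glucosyltransferase puts a glucose back on proteins that have not yet folded, which sends them through the cycle again. Slow trimming of mannose by ER mannosidase I ends the cycle and marks proteins for degradation. Calreticulin also binds calcium in the ER, and mutants that lose its acidic tail drive myeloproliferative neoplasms in human patients, where the altered protein binds and activates the thrombopoietin receptor.

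The reads counted per library ranged between 21325340 and 27083569 in the mutant and between 22555594 and 28710304 in the wild-type group. The first principal component (55.9% of the variance) set wild-type 3 and 4 (84.6 and 83.0) apart from the remaining libraries. Mutant 2 lay in between at -0.52, while mutant 1, mutant 3, wild-type 1 and wild-type 2 lay between -58.1 and -31.0. Mutant 2, wild-type 3 and wild-type 4 also had the most reads (27083569, 28710304 and 28537617). With limma, 8810 of 16047 genes differed between wild-type 3 and 4 and wild-type 1 and 2, and the difference followed exonic length. Its median was -0.66 (log2) in genes of up to 2153 exonic bases and 0.62 in those of 6124 or more. Mutant 1 and 2 and wild-type 3 and 4 have sample titles of one number series, and the labels do not say whether it marks a batch. Where it matters, values are given for all 7 libraries and with either wild-type pair left out. The sort markers Slamf1 (CD150), Kit and Ly6a (Sca-1) were present in every library, and Cd48 was low, at 124 to 164 normalized counts in mutant and 128 to 241 in wild-type libraries.

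The first comparison asked whether the 7 genes differed in level between mutant and wild-type stem cells. Calreticulin RNA was slightly lower in every mutant library, calnexin RNA averaged higher with wide scatter, and glucosidase II's Prkcsh was nearly level. Uggt1, Ganab, Man1b1 and Mogs had log2 differences of -0.66 to -0.49, or 0.63 to 0.71 of wild-type, with overlapping groups. With limma and Benjamini-Hochberg adjustment 0 of the 7 genes were called, beside 0.00% of all genes tested, and 0 of the 7 had an unadjusted p under 0.05 (1365 of all genes did). On whole reads recovered from the table, edgeR also called 0 members, beside 0.00% of all genes, and DESeq2 called 0, beside 0.667% of all genes. With the series of sample titles as a covariate the call changed, and limma called Uggt1, Ganab, Man1b1 and Mogs lower, beside 12.5% of all genes called lower. Calr was the only member whose groups did not overlap, on the lower side, where 4.34% of all genes tested did the same, and 0 members were higher without overlap, against 5.23% of all genes. The members' median log2 difference was -0.49, beside 0.00 over all genes tested. It depended on the wild-type pair. Without wild-type 3 and 4 the members' median was -0.16, beside 6.2e-05 over all genes. Without wild-type 1 and 2 it was -0.71, beside -0.0044. In bulk RNA of sorted cells, less RNA per cell cannot be told apart from fewer cells that express a gene.

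**Figure D1:**
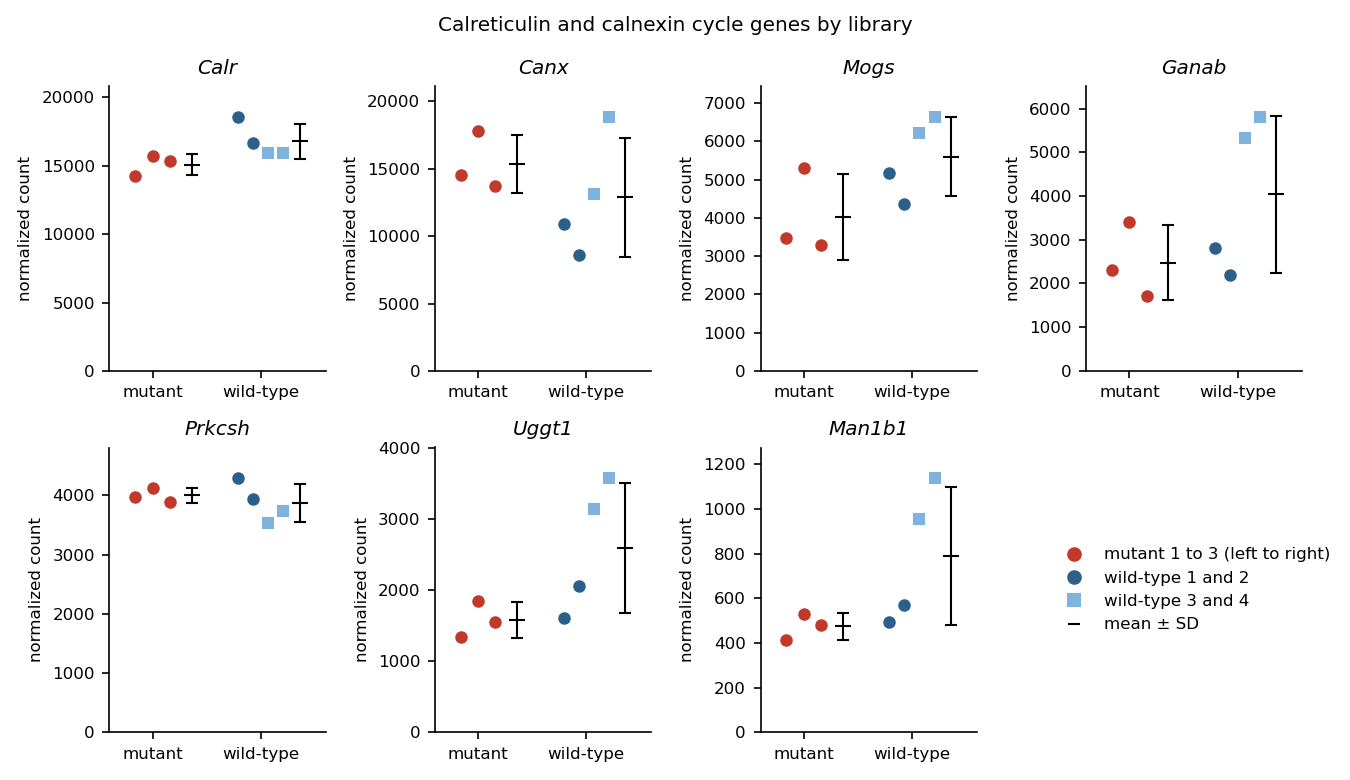
Normalized counts of the 7 cycle genes in each library (vertical axis from 0, linear), mutant left and wild-type right, with the mean and SD of each group. The Calr groups do not overlap, the other 6 do, and wild-type 4 (right square) holds the highest value of Canx, Mogs, Ganab, Uggt1 and Man1b1.

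The edited gene came first. Calr (ENSMUSG00000003814.8, chr8:84841850-84846934, minus strand, GRCm38) encodes the soluble lectin of the cycle. It had 14239, 15724 and 15317 normalized counts in mutant 1 to 3, against 18606, 16639, 15922 and 15965 in wild-type 1 to 4. Each mutant library was below each wild-type library, although mutant 2 lay just under wild-type 3 and 4. The means were 15093 ± 767 in mutant (SD, n = 3) and 16783 ± 1259 in wild-type libraries (SD, n = 4). The log2 difference was -0.15 (SE 0.15), or 0.90 of wild-type, and limma's adjusted p was 0.617. After quantile normalization it was -0.30 (limma's adjusted p = 0.512). A two-sided exact permutation test gave p = 0.0857, where the smallest possible p with 3 against 4 libraries is 0.0286. In FPKM summed over the transcript models of Calr, which scales for length, mutant libraries had 269, 288 and 288 and wild-type libraries 326, 305, 300 and 303. These groups did not overlap either, on the lower side, as in 3.76% of all genes tested in summed FPKM. The exact permutation test gave p = 0.0286 for a log2 difference of -0.13, while limma on the same values gave an adjusted p of 0.677. Because an allele of this class alters coding sequence and does not remove the gene, the level of Calr is only a weak check of the labels. The altered sequence may also change how many mutant reads are counted for Calr, which was not tested.

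Calreticulin is abundant in secretory cells, so the markers of plasma cells were set beside it. Summed over the 5 of 7 listed plasma cell markers analysed here, mutant 1 to 3 had 439, 455 and 338 normalized counts. Wild-type 1 to 4 had 529, 475, 551 and 600, so that this sum was also lower in every mutant library. Within the wild-type group the sum was highest in wild-type 4, whereas Calr was highest in wild-type 1. The sum does not show which of its genes carried the difference. Mzb1 and Igkc, listed as plasma cell markers, were not among the genes analysed. No other list of cell markers separated the groups, and among single genes 4.34% were lower without overlap. Tnfrsf17, a defining plasma cell receptor, was at 0 in at least 1 library. Whether these cells have a part in the level of Calr was not tested.

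Canx (ENSMUSG00000020368.15, chr11:50293961-50325673, minus strand) encodes calnexin, the membrane-bound lectin. It had 14543, 17800 and 13731 normalized counts in the mutant libraries, against 10890, 8633, 13157 and 18881 in the wild-type libraries. The mutant values sat inside the wild-type range, above 3 of the 4 wild-type libraries and, except for mutant 2, far below wild-type 4. The means were 15358 ± 2153 (SD, n = 3) in mutant and 12890 ± 4400 (SD, n = 4) in wild-type libraries. The log2 difference was 0.30 (SE 0.27, limma's adjusted p = 0.591). Set against wild-type 1 and 2 alone it was 0.65 (adjusted p = 0.246), and against wild-type 3 and 4 alone it was -0.05 (adjusted p = 0.869), so its direction depends on the wild-type pair. After quantile normalization it was 0.12.

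Calr and Canx share a promoter feature that the choice of members did not use. Both carry the ER stress response element (ERSE: CCAAT, any 9 bases, CCACG, searched on both strands), the element through which the unfolded protein response switches on many ER chaperones. Among RefSeq promoter windows of 300 bases (250 before and 50 after the start, GRCm38.p6), 39 of 32851 (0.119%) hold it. Of the 7 members, only Calr and Canx do. The windows of the 7 members had no ERSE-II (ATTGG, any 1 base, CCACG), which 12 windows (0.0365%) hold, and no ATF6/XBP1 motif (TGAC directly followed by GTGG), which 222 windows (0.676%) hold. A match describes these letters only. In the 250 bases before each start, read towards the gene, the capitals mark the element.

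Calr promoter, chr8:84846932-84847181, minus strand: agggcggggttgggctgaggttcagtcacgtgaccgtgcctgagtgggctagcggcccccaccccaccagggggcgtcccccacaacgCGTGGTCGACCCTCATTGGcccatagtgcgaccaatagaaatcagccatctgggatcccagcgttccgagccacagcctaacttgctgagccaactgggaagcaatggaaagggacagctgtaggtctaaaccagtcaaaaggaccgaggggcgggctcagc

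Canx promoter, chr11:50325674-50325923, minus strand: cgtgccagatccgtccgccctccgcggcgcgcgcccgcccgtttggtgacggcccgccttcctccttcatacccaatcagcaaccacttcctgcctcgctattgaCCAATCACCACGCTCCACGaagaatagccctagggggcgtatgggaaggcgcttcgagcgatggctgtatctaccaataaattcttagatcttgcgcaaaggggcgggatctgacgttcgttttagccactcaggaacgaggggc

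In the Calr window the element lies on the strand opposite to the gene, 162 to 144 bases before the start, and in the Canx window on the same strand, 145 to 127 bases before it. The lectin genes differed in their profiles over the 7 libraries. Calr was highest in wild-type 1, where Canx was among its lowest, and Canx was highest in wild-type 4, where Calr was among its lower wild-type values. The root mean square distance between their centred log2 profiles was 0.43, which ranked Canx 7620th among 16046 genes in nearness to Calr. This distance counts the size of the variation as well as its shape, and at the same distance Calr ranked 4208th in nearness to Canx. The windows with an ERSE belong to 37 genes, of which 21 were tested, a list drawn up after the members' windows had been searched. Of these, 10 had a positive and 11 a negative log2 difference, with a median of -0.10, and limma called 0 of them. Over all genes tested, 8034 of 16047 were positive and 0.00% were called. Against wild-type 1 and 2 alone the median of the 21 was 0.30, beside 6.2e-05 over all genes tested. Against wild-type 3 and 4 alone it was -0.05, beside -0.0044 over all genes. Calr and Canx are among the 21, and this value of -0.05 is that of Canx itself.

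The balance of the lectins was compared within each library. The log2 ratio of Canx to Calr, in normalized counts that are not scaled for length, was 0.03, 0.18 and -0.16 in mutant 1 to 3, against -0.77, -0.95, -0.28 and 0.24 in wild-type 1 to 4. All mutant libraries were above wild-type 1, 2 and 3 and below wild-type 4. The mean ratio was higher by 0.46 in the mutant, which did not pass an exact permutation test (two-sided p = 0.257, the same after adjustment over 2 ratios). Against wild-type 1 and 2 alone it was 0.88, and against wild-type 3 and 4 alone 0.03. In summed FPKM the ratio differed by 0.42, also with an exact permutation p of 0.257.

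The glucosidases act before the lectins. Mogs (ENSMUSG00000030036.8, chr6:83115496-83118898, plus strand) encodes glucosidase I, which removes the outermost glucose. It had 3466, 5305 and 3299 normalized counts in the mutant libraries, against 5174, 4354, 6224 and 6647 in the wild-type libraries. Mutant 1 and 3 were below all wild-type libraries, while mutant 2 lay above wild-type 1 and 2. Its log2 difference was -0.49 (SE 0.23, limma's adjusted p = 0.538).

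Glucosidase II consists of a catalytic and a regulatory subunit, and their genes parted ways over the libraries. Ganab (ENSMUSG00000071650.6, chr19:8898071-8916672, plus strand), the catalytic subunit, had 2305, 3402 and 1719 normalized counts in the mutant libraries, against 2820, 2197, 5333 and 5819 in the wild-type libraries. The mutant values spread around those of wild-type 1 and 2, and all were well below wild-type 3 and 4. Prkcsh (ENSMUSG00000003402.14, chr9:22002806-22014222, plus strand), the regulatory subunit that keeps the enzyme in the ER, had 3978, 4129 and 3886 normalized counts in the mutant libraries, against 4291, 3939, 3525 and 3732 in the wild-type libraries. These mutant values lay within the wild-type range, and Prkcsh had the narrowest mutant spread of the 7 genes relative to its mean. With limma, Ganab had a log2 difference of -0.65 (SE 0.39, adjusted p = 0.538) and Prkcsh one of 0.05 (SE 0.15, adjusted p = 0.867).

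The log2 ratio of Ganab to Prkcsh was -0.79, -0.28 and -1.18 in mutant 1 to 3, against -0.61, -0.84, 0.60 and 0.64 in wild-type 1 to 4, in normalized counts. The positive values were those of wild-type 3 and 4, and the mutant range spanned wild-type 1 and 2. The mean ratio differed by -0.70, with a two-sided exact permutation p of 0.257 and an adjusted p of 0.257 over 2 ratios. With wild-type 3 and 4 left out it was -0.023, and with wild-type 1 and 2 left out -1.37.

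Uggt1 (ENSMUSG00000037470.14, chr1:36140027-36244720, minus strand) encodes the glucosyltransferase that senses unfolded glycoproteins. It had 1339, 1842 and 1559 normalized counts in the mutant libraries, against 1615, 2054, 3139 and 3576 in the wild-type libraries. Mutant 1 and 3 were below every wild-type library, and mutant 2 was above wild-type 1 alone. Limma gave a log2 difference of -0.66 (SE 0.29, adjusted p = 0.538), and -0.31 in summed FPKM (adjusted p = 0.552).

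Man1b1 (ENSMUSG00000036646.13, chr2:25332338-25352212, plus strand) encodes ER mannosidase I, which times the exit from the cycle. It had 413, 530 and 480 normalized counts in the mutant libraries, against 492, 569, 954 and 1138 in the wild-type libraries. Again mutant 1 and 3 were below every wild-type library and mutant 2 was above wild-type 1. Limma gave a log2 difference of -0.65 (SE 0.32, adjusted p = 0.538), and -0.37 in summed FPKM (adjusted p = 0.529). Man1b1 shares 234 exonic bases with the antisense gene AA543186, and the libraries are unstranded, so reads of these bases cannot be told apart.

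**Figure D2:**
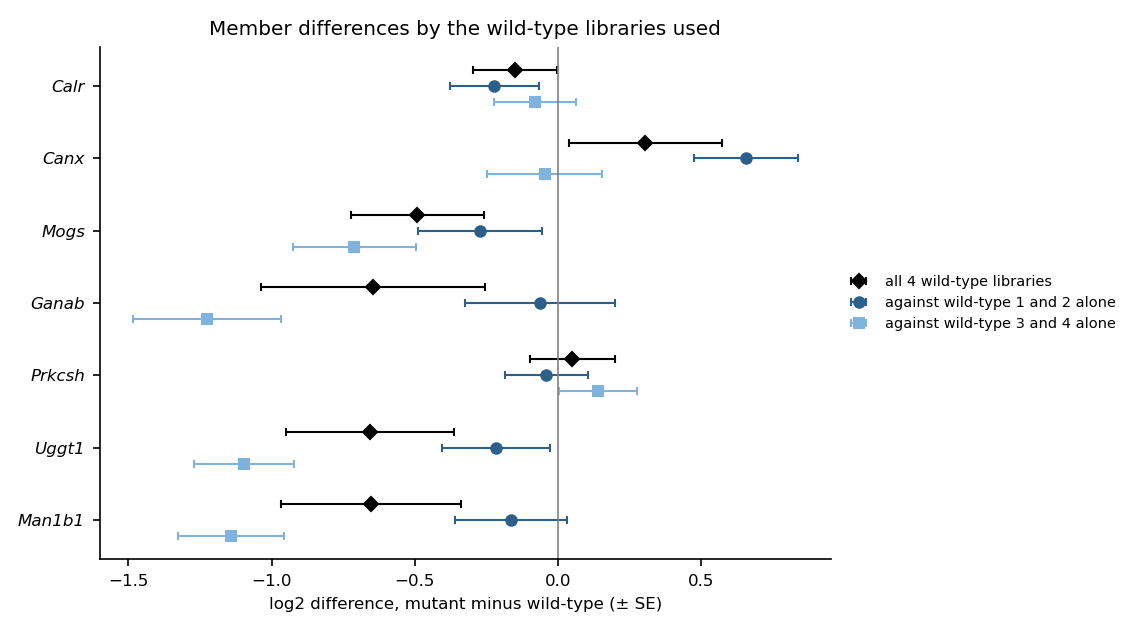
Log2 difference of each cycle gene, mutant minus wild-type (horizontal axis), with limma's SE, against all 4 wild-type libraries (diamonds), against wild-type 1 and 2 alone (circles) and against wild-type 3 and 4 alone (squares). Uggt1, Ganab and Man1b1 lie beyond -1 against wild-type 3 and 4 and at -0.22, -0.06 and -0.16 against wild-type 1 and 2, while Calr stays between -0.22 and -0.08.

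The size of these differences depended on the wild-type pair. Without wild-type 3 and 4, Uggt1 had a log2 difference of -0.22, Ganab -0.06, Man1b1 -0.16 and Mogs -0.27, and limma called 0 of the 7 members, beside 0.318% of all genes. Without wild-type 1 and 2, the values were -1.10 for Uggt1 (adjusted p = 0.00302), -1.23 for Ganab (0.00763), -1.14 for Man1b1 (0.00323) and -0.71 for Mogs (0.0283). Then 4 of the 7 members were called lower, beside 22.8% of all genes called lower. Calr was -0.22 against wild-type 1 and 2 alone and -0.08 against wild-type 3 and 4 alone, and Prkcsh was -0.04 and 0.14 in these fits.

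Within the title series that mutant 1 and 2 share with wild-type 3 and 4, the same 4 genes were called lower by limma, with log2 differences of -1.09 for Uggt1, -0.99 for Ganab, -1.15 for Man1b1 and -0.58 for Mogs, beside 21.1% of all genes called lower. In the libraries outside it, where the mutant group is mutant 3 alone and is assumed to vary like wild-type 1 and 2, Mogs was called lower (-0.52, adjusted p = 0.0381), beside 2.92% of all genes. There Ganab was -0.53 (adjusted p = 0.0566), Uggt1 -0.22 and Man1b1 -0.14. With the title series as a covariate over all 7 libraries, Ganab (-0.81, adjusted p = 0.0258), Man1b1 (-0.75, adjusted p = 0.0444), Mogs (-0.56, adjusted p = 0.0383) and Uggt1 (-0.75, adjusted p = 0.0358) were called lower, beside 12.5% of all genes. With each library's length slope as a covariate, 0 members were called, beside 0.791% of all genes, and the largest was Canx at 0.64 (adjusted p = 0.08205). Calr, Uggt1, Man1b1, Mogs and Ganab were below 0 in every one of these fits, but Ganab was close to 0 in those without wild-type 3 and 4 or with the length slope.

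The wild-type pairs themselves separated the members. In wild-type 3 and 4, relative to wild-type 1 and 2, Ganab was higher by 1.16 (log2), Man1b1 by 0.98, Uggt1 by 0.88, Canx by 0.70 and Mogs by 0.44, all called by limma, beside 29.6% of all genes called higher. Calr (-0.14) and Prkcsh (-0.18) were not called. The exonic lengths are 5454 bases for Ganab, 5391 for Man1b1, 12853 for Uggt1 and 4693 for Canx, against 2880 for Calr, 4275 for Prkcsh and 2892 for Mogs. Calr and Mogs are thus of nearly equal length, but the sign of Calr is not settled, since its difference was not called. Genes of about that length (a bin with a median of 2944 bases) had a median difference of -0.17, close to Calr and below Mogs. Mitochondrial genes, a sign of RNA or cell quality, took 1.11%, 0.683% and 1.17% of reads in mutant 1 to 3, against 0.681%, 0.711%, 0.363% and 0.412% in wild-type 1 to 4. Kit had 2976 to 6677 normalized counts in mutant libraries and 4068 to 26511 in wild-type libraries, with the 2 highest values in wild-type 3 and 4. Slamf1 and Ly6a moved the opposite way and were lowest in wild-type 3 and 4. On the same scale Slamf1 stood at 1416 and 1422 there, below the 1778 to 2407 of the remaining libraries. For Ly6a the pair stood at 2323 and 2407, below 4207 to 6363 elsewhere. The part of library quality or cell makeup in these differences was not tested.

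**Figure D3:**
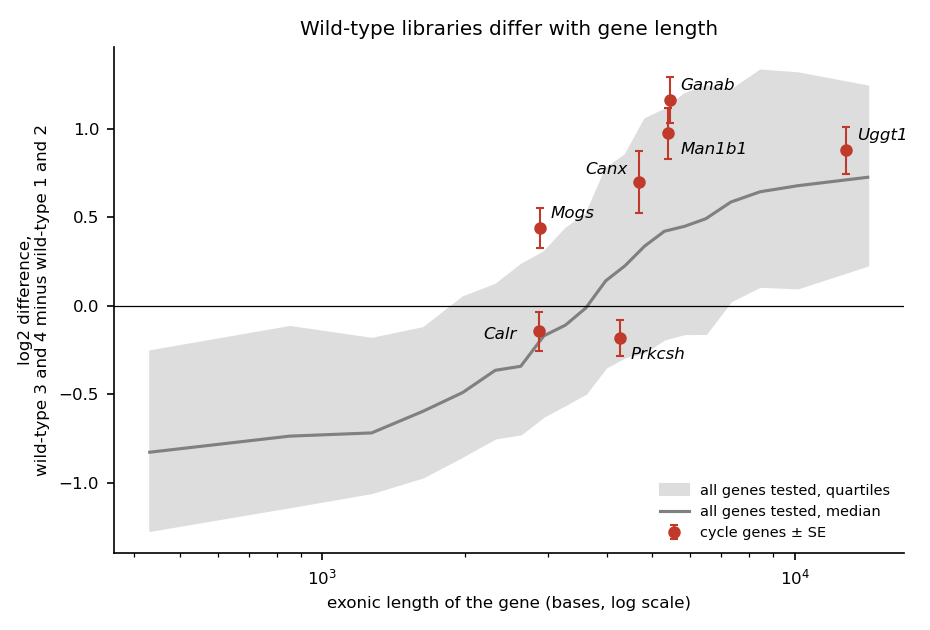
Log2 difference of wild-type 3 and 4 minus wild-type 1 and 2 (vertical axis) against the exonic length of the gene in bases (horizontal log axis), with the median and quartiles of all genes tested in grey and the cycle genes with limma's SE in red. The grey median rises with length, Mogs and Ganab lie above the band of quartiles or close to its edge, and Calr and Prkcsh lie below 0.

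Levels were compared between genes in FPKM summed over transcript models, which accounts for the length of each model but lets short partial models add to a gene. Calr stood highest, at a mean of 281 ± 11.1 FPKM in mutant (SD, n = 3) and 309 ± 12.04 FPKM in wild-type libraries (SD, n = 4). Canx followed at 154 ± 18.7 FPKM in mutant and 131 ± 46.4 FPKM in wild-type libraries. Neither range touched that of the next gene in either group, so that the lectins were the most abundant RNAs of the 7.

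Prkcsh averaged 74.3 ± 1.09 FPKM in mutant and 72.9 ± 5.61 FPKM in wild-type libraries, and Mogs 56.4 ± 15.1 FPKM in mutant and 79.8 ± 15.5 FPKM in wild-type libraries. Their ranges overlapped in both groups, and Prkcsh was above Mogs in 3 of 3 mutant but 2 of 4 wild-type libraries. Ganab averaged 25.1 ± 8.28 FPKM in mutant and 42.2 ± 19.5 FPKM in wild-type libraries, below Mogs in every library. Uggt1, at 20.7 ± 5.23 FPKM in mutant and 26.0 ± 6.62 FPKM in wild-type libraries, overlapped with Ganab in both groups. In these sums Man1b1 was lowest, at 9.69 ± 1.64 FPKM in mutant and 12.8 ± 2.04 FPKM in wild-type libraries. Its range did not reach that of Uggt1 in either group. The coding model of Uggt1 alone had 1.47 to 2.88 FPKM, and the longest coding model of Man1b1 had 2.11 to 10.4 FPKM. The Man1b1 model was the higher of the pair in every library, so the order of these genes depends on the models summed. The subunits of glucosidase II thus differed in level, with Prkcsh above Ganab in every library.

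The transcript table allowed isoforms of the lectins to be compared. Of the 4 Calr models, Calr-201 is the coding one, with 9 exons. It had 232, 250 and 256 FPKM in the mutant libraries, against 317, 287, 259 and 262 FPKM in the wild-type libraries. Mutant libraries were lower throughout, though mutant 3 lay only just below wild-type 3, and with limma the log2 difference of -0.19 was not called (adjusted p = 0.722). Among all transcripts tested, 3.82% were lower without overlap and 4.27% higher without overlap, and limma called 0 of 30156 (2077 had an unadjusted p under 0.05).

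Calr-202, a retained-intron model at the 5′ end of the gene, had 8.83, 8.32 and 8.98 FPKM in the mutant libraries, against 1.61, 4.74, 8.08 and 6.43 FPKM in the wild-type libraries. It was the only lectin model that was higher in every mutant library, by a log2 difference of 0.78 (limma's adjusted p = 0.661), with wild-type 3 just under the mutant values. The difference was 0.41 without wild-type 1. Against wild-type 1 and 2 alone it was 1.33, but 0.24 against wild-type 3 and 4 alone. Calr-203, which also retains an intron at that end, had 25.6, 26.7 and 21.9 FPKM in the mutant libraries, against 4.35, 11.4, 18.7 and 28.7 FPKM in the wild-type libraries. Its mutant values were close to each other and below wild-type 4 (log2 difference 0.87, limma's adjusted p = 0.661). Here too the value depended on the wild-type libraries, at 0.41 without wild-type 1. Against wild-type 1 and 2 alone it was 1.66, but 0.085 against wild-type 3 and 4 alone. Neither model covers any base of the last exon.

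Calr-204, the only retained-intron model that reaches the last exon (249 of its 995 bases), had 1.88, 2.36 and 1.28 FPKM in the mutant libraries, against 3.33, 2.06, 14.1 and 5.32 FPKM in the wild-type libraries. Only mutant 2 lay above any wild-type library, and wild-type 3 was far above the rest. The log2 difference was -1.09 (limma's adjusted p = 0.661), and without wild-type 1 and 2 it was -1.80 and called (adjusted p = 0.03001), beside 10.3% of all transcripts called lower. The coding model made up 86.5%, 87.0% and 88.8% of Calr's summed FPKM in mutant 1 to 3, against 97.2%, 94.05%, 86.4% and 86.7% in wild-type 1 to 4. The mutant shares sat with those of wild-type 3 and 4 rather than wild-type 1 and 2. The mean share differed by -3.62 percentage points (exact permutation test, two-sided p = 0.4, adjusted over 2 shares 0.571). It was -8.16 points against wild-type 1 and 2 alone and 0.926 points against wild-type 3 and 4 alone. FPKM of models that share most of their exons are estimates of the authors' program, and the knock-in allele may place reads differently, which was not tested.

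**Figure D4:**
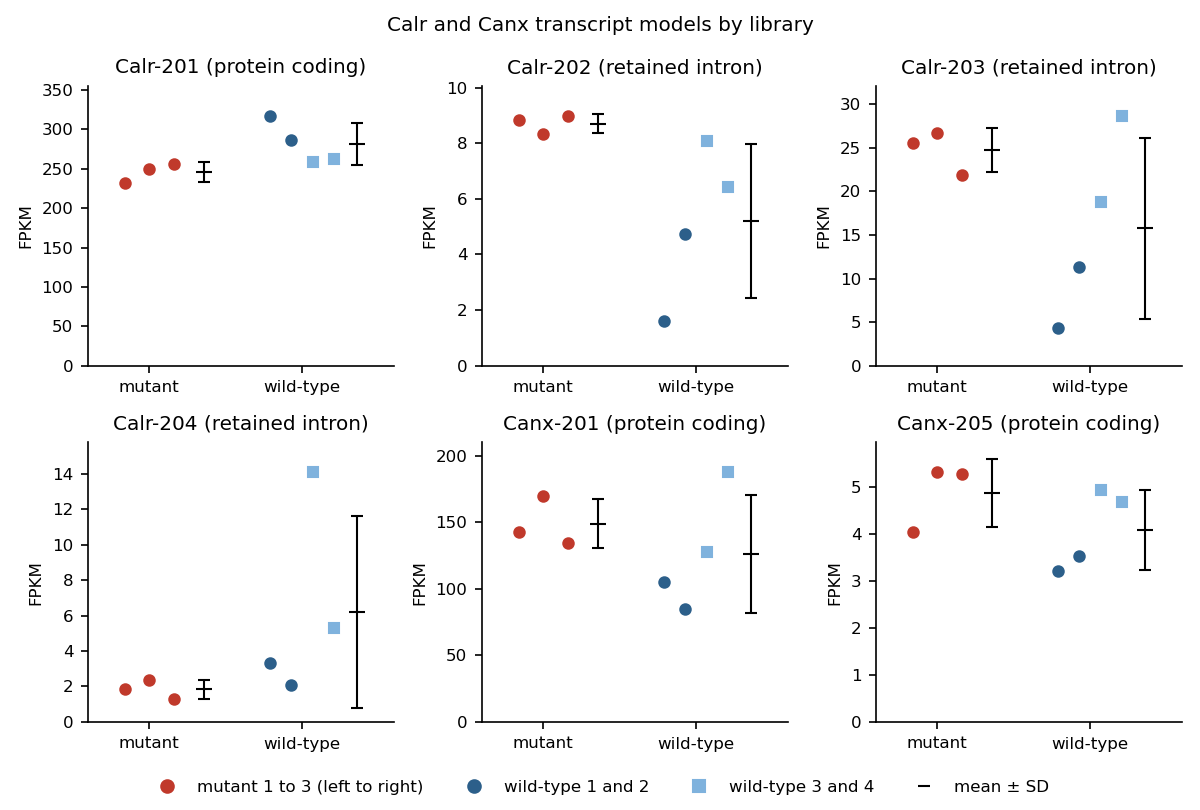
FPKM of the Calr and Canx transcript models that passed the filter (vertical axes from 0), per library, mutant left and wild-type right, with the mean and SD of each group. Calr-201 is lower and Calr-202 higher in every mutant library, and the groups overlap for the other 4 models.

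Calnexin RNA was almost wholly the coding model Canx-201. It had 143, 170 and 135 FPKM in the mutant libraries, against 105, 84.5, 128 and 188 FPKM in the wild-type libraries, and so followed the gene count with wild-type 4 highest. Its log2 difference was 0.29 (limma's adjusted p = 0.704), and its share of summed FPKM differed by 0.20 percentage points (exact permutation p = 0.571). Canx-205, another coding model with 15 exons, had 4.05, 5.32 and 5.29 FPKM in the mutant libraries, against 3.21, 3.54, 4.94 and 4.70 FPKM in the wild-type libraries. Mutant 2 and 3 were above all wild-type libraries and mutant 1 was not. The other 3 Canx models did not pass the filter.

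For Uggt1, the coding model ENSMUST00000046875.13 had 1.47, 1.66 and 1.67 FPKM in the mutant libraries, against 1.70, 2.17, 2.77 and 2.88 FPKM in the wild-type libraries. It was lower in every mutant library, as were 3.82% of all transcripts tested, though mutant 2 and 3 came close to wild-type 1. Among all models of the members other than the lectins, it alone had groups without overlap. A model annotated for nonsense-mediated decay, ENSMUST00000174266.7, had 2.91, 5.32 and 2.32 FPKM in the mutant libraries, against 3.34, 3.08, 14.9 and 17.9 FPKM in the wild-type libraries, and so was high in wild-type 3 and 4. The retained-intron model ENSMUST00000174716.7 was low in those libraries. It had 5.76, 5.38 and 7.77 FPKM in the mutant libraries, against 7.52, 11.5, 2.96 and 2.06 FPKM in the wild-type libraries.

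The genes whose profiles lay nearest to Calr over the 7 libraries, by root mean square distance of centred log2 values, were Trub2 (0.04), Eya3 (0.04) and Ado (0.04). Prkcsh was the nearest member, at 0.11 and rank 260 of 16046. The distance also counts how much a gene varies, so genes that vary little lie near Calr. The nearest to Canx were Casc4 (0.11), Eepd1 (0.13) and BC016579 (0.13). The nearest to Uggt1 were Tcirg1 (0.04), the member Man1b1 (0.06) and Tmem245 (0.10). Uggt1 and Man1b1 were both high in wild-type 3 and 4 and low in mutant 1. After quantile normalization 0 of the 3 nearest genes of Calr, 0 of those of Canx and 1 of those of Uggt1 stayed among the nearest 3, so these names depend on the scaling.

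The other genes of the pathway were a list of 28 partners, all of which were tested. With limma 0 of the 28 were called, beside 0.00% of all genes tested. Of the partners, 2 had an unadjusted p under 0.05, as did 1365 of all 16047 genes. Of the 28, 13 had a positive and 15 a negative log2 difference, with a median of -0.02 beside 0.00 for all genes. Over all genes tested, 8034 of 16047 were positive. In 4 partners the mutant libraries were higher without overlap (5.23% of all genes) and in 1 they were lower without overlap (4.34% of all genes). Without wild-type 3 and 4, 21 of the 28 were positive and 0 were called, beside 8025 of 16047 genes positive and 0.318% called. Without wild-type 1 and 2, 5 were called higher and 9 lower, beside 19.7% and 22.8% of all genes.

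The 5 genes that are partners or relatives of the lectins all had positive differences over the 7 libraries, with a median of 0.59. Positive differences were found in 8034 of the 16047 genes tested. With either wild-type pair left out 4 of the 5 were positive, and the median was 0.33 against wild-type 1 and 2 alone, but 0.70 against wild-type 3 and 4 alone. Pdia3, the disulfide isomerase held by both lectins, had 36424, 34573 and 43170 normalized counts in the mutant libraries, against 27683, 25615, 13184 and 22605 in the wild-type libraries. Each mutant library was above each wild-type library, and wild-type 3 was the lowest. The log2 difference was 0.82 (SE 0.27, limma's adjusted p = 0.538), 0.51 against wild-type 1 and 2 alone and 1.13 against wild-type 3 and 4 alone. This gene was known from earlier results of these data, so its values are not independent evidence.

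Ppib, a prolyl isomerase that binds the same arm of the lectins, had 4147, 3545 and 5321 normalized counts in the mutant libraries, against 3821, 3732, 1992 and 2297 in the wild-type libraries. The groups overlapped, since mutant 2 was below wild-type 1 and 2. Its log2 difference was 0.59, and 0.18 without wild-type 3 and 4. Erp29, another chaperone that binds there, had 3225, 2748 and 3822 normalized counts in mutant and 3496, 3261, 1803 and 2206 in wild-type libraries. Its groups overlapped, and its log2 difference of 0.32 became -0.06 without wild-type 3 and 4. Clgn, which encodes the testis lectin calmegin, was low, at 12.3, 13.4 and 10.9 normalized counts in mutant and 8.74, 0, 15.0 and 35.8 in wild-type libraries. Its log2 difference of 0.60 rested on wild-type 2, without which it was -0.44, and its mean count was lower in the mutant (12.2) than in the wild-type libraries (14.9).

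Among the genes that re-add or sense glucose, Uggt2, the paralogue of Uggt1, had 147, 128 and 168 normalized counts in the mutant libraries, against 88.5, 97.7, 139 and 148 in the wild-type libraries. The groups overlapped and its log2 difference was 0.34, with 0.65 against wild-type 1 and 2 alone and 0.03 against wild-type 3 and 4 alone. Selenof, a selenoprotein that binds the glucosyltransferase, had 14462, 12492 and 16535 normalized counts in mutant and 13058, 12603, 7769 and 8082 in wild-type libraries. Mutant 2 was below wild-type 1 and 2, and the log2 difference was 0.51. Against wild-type 1 and 2 alone it was 0.17, and against wild-type 3 and 4 alone it was 0.86 and called (limma's adjusted p = 0.00576). Mlec, a lectin for glucose-bearing glycans, had 5076, 5879 and 5479 normalized counts in mutant and 5505, 4991, 11867 and 14529 in wild-type libraries. Its mutant values matched wild-type 1 and 2 and were far below wild-type 3 and 4, with a log2 difference of -0.60 that was 0.06 without wild-type 3 and 4.

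In the group that trims mannose and hands proteins to degradation, 4 of 12 genes had positive and 8 had negative differences. The largest negative ones were those of Edem3, a mannosidase of the degradation route, at -0.89, Man1c1, a Golgi mannosidase, at -0.86, and Edem1, a relative of Edem3, at -0.56. Edem3 had 243, 252 and 224 normalized counts in mutant and 219, 199, 929 and 971 in wild-type libraries, so that the mutant values were above wild-type 1 and 2 and far below wild-type 3 and 4. Man1c1 ranged between 243 and 565 normalized counts in mutant and between 356 and 1079 in wild-type libraries. Edem1 ranged between 597 and 816 in mutant and between 696 and 1417 in wild-type libraries. Without wild-type 3 and 4 the differences of these genes were 0.20 for Edem3, -0.15 for Man1c1 and -0.11 for Edem1.

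Besides Pdia3, the partners without overlap between groups were Edem2, Erlec1, Mcfd2 and Manea, which are named because they form this short list and were chosen after their values were seen. Edem2, another mannosidase of the degradation route, had 4641, 4937 and 4321 normalized counts in mutant and 4246, 4196, 4204 and 3991 in wild-type libraries (log2 difference 0.15). Erlec1, an ER lectin that takes glycoproteins to degradation, had 449, 416 and 526 in mutant and 390, 363, 312 and 331 in wild-type libraries (0.41). Mcfd2, the partner of a lectin that carries glycoproteins out of the ER, had 4846, 4481 and 4710 in mutant and 3719, 3703, 3240 and 3310 in wild-type libraries (0.42). In each of these, wild-type 1 came closest to the mutant libraries. Manea, a Golgi endomannosidase, had 352, 355 and 360 in mutant and 377, 374, 649 and 743 in wild-type libraries (-0.52), and its mutant values were just below wild-type 1 and 2. Its difference was -0.08 against wild-type 1 and 2 alone.

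**Figure D5:**
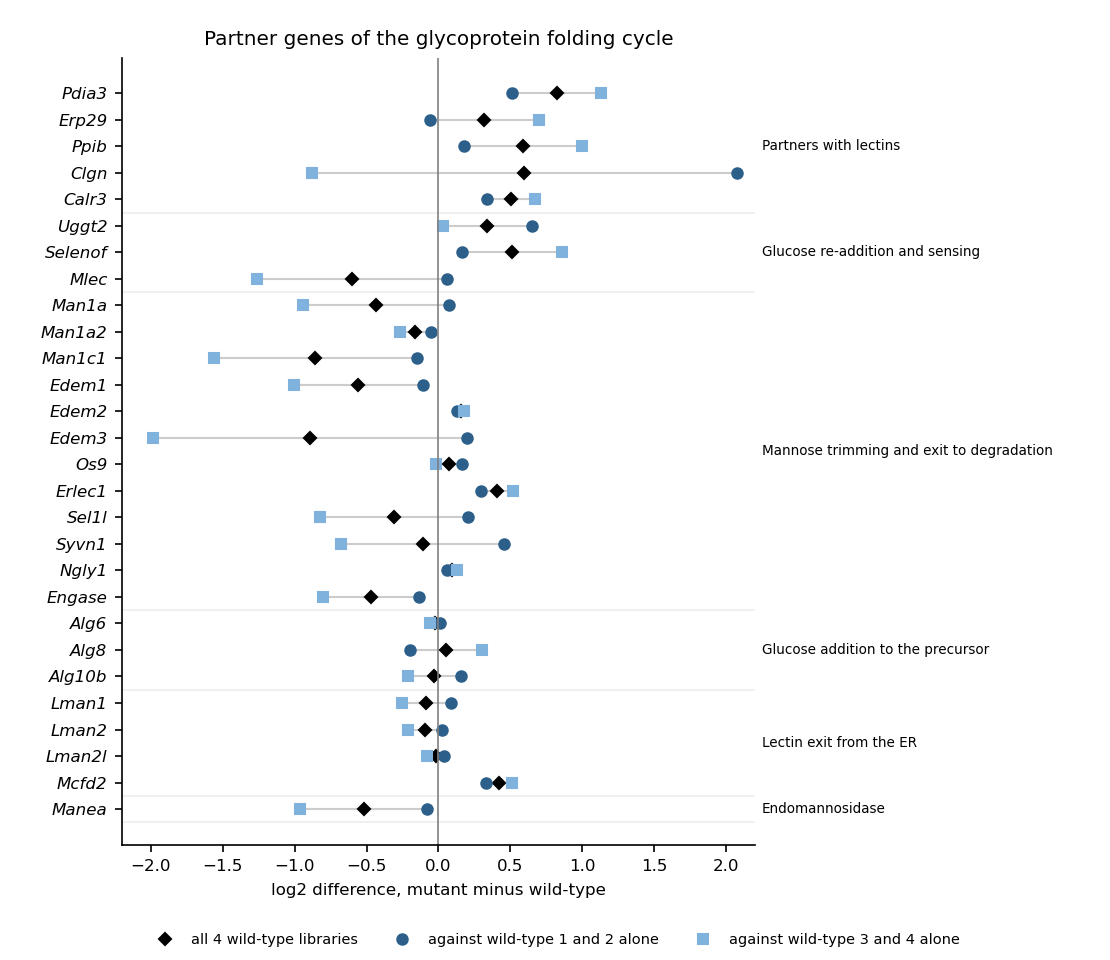
Log2 difference of the 28 partner genes, mutant minus wild-type (horizontal axis), grouped by role, against all 4 wild-type libraries (diamonds) and against each wild-type pair alone (circles and squares). Pdia3, Erlec1 and Mcfd2 lie right of 0 by all 3 measures, whereas Edem3, Mlec and Erp29 lie on different sides of 0 for the wild-type pairs.

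Of the groups, the 3 genes that add glucose to the precursor had log2 differences with a median of -0.02, and the 4 of lectin-borne exit from the ER a median of -0.05. Markers of other blood cells varied between libraries without separating the groups, apart from the plasma cell list. Summed over 15 neutrophil and monocyte markers they ranged between 23091 and 69173 normalized counts in mutant and between 59102 and 102996 in wild-type libraries. Other lists moved with the wild-type pairs. The 4 endothelial and stromal markers analysed summed to 840 to 1001 normalized counts in mutant libraries, against 1587 and 1531 in wild-type 3 and 4. In wild-type 1 and 2 they summed to 779 and 721. The 5 B cell markers analysed summed to 1372 to 1927 in mutant libraries, against 1089 and 945 in wild-type 3 and 4. In wild-type 1 and 2 they summed to 1596 and 1676. Cxcl12 and Ebf1, of these lists, were at 0 in at least 1 library. The part of these cells in the values above was not tested.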

How the data were processed

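Gene expression was measured by unstranded RNA sequencing of sorted cells in 3 mutant and 4 wild-type libraries. The labels' protocols name PicoPure RNA isolation, SMART-Seq v4 cDNA synthesis and Swift 2S Plus library preparation. The submitters' processing notes name GRCm38, the aligner STAR 2.7.3a, the transcript estimator Cufflinks 2.2.1, the read counter HTSeq 0.6.1, DESeq2 1.12.4 and the quality check FastQC 0.11.7, without their options. The deposited gene signal was a normalized count, and 100% of its values were whole multiples of 1 read within 0.01 reads in each library, so read counts were recovered. The authors' deposited isoform table holds FPKM, in which fragments are divided by model length and library depth, for 66660 transcripts. Amplified reads without molecular tags are not independent molecules.

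Differences, mutant minus wild-type, were fitted with limma 3.58.1 (R 4.3.3, variance trend, no covariate) on log2(normalized count + 1) for genes with at least 10 normalized counts in at least 3 libraries, and on log2(FPKM + 1) for transcripts that reached an FPKM of 1 in 3 or more libraries. Adjusted p-values are Benjamini-Hochberg values over all genes or transcripts tested, with a threshold of 0.05. Fold changes on this scale understate those of low genes. Ratios, shares and the level of Calr were compared by exact permutation tests. Alternatives changed the pseudocount, filter, scaling, test (DESeq2 1.42.0 or edgeR 4.0.16 run on the recovered reads), table and libraries, or added the title series or length slope as a covariate. The length slope is the slope of a library's log2 deviations on log exonic length, from GENCODE vM21 (19237 genes, 97.9%). The script was tested on simulated reads.

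Members and lists were chosen with earlier results of these data known. Named partners are Pdia3, Erp29, Ppib, Uggt2, Selenof, Mlec and the 4 largest differences in each direction, and Edem2, Erlec1, Mcfd2 and Manea were named after their values were seen. Replicates are numbered in accession order. A coding sequence of Calr is not reported here.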

Additional observations from a re-analysis of the deposited data

Results flagged for a closer look

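In 1 of the 52 groups of 4 values examined, a single library stood apart from the others. Canx-202, a short non-coding model of the calnexin gene that did not pass the filter on low values, was estimated at 2.202 FPKM in wild-type 4 and near 0 in wild-type 1 to 3. The gap took up 0.9995 of the group's range, past the limit of Dixon's test for a stray value. In the mutant libraries the model was at 0.561 FPKM in mutant 1 and near 0 in mutant 2 and 3. Chance alone flags about 1 in 20 groups. Wild-type 4 also had the highest Canx of the 7 libraries, and the cause was not tested.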

How the results depend on the processing

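Calr, Uggt1, Ganab, Mogs and Man1b1 kept the sign of their log2 difference in every alternative. For single genes and transcripts, 326 log2 differences under an alternative kept direction and call, 24 passed the threshold and 10 reversed. DESeq2 called 107 genes, where limma and edgeR called 0 (1365 and 1639 genes had an unadjusted p under 0.05).

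Without wild-type 3 and 4, limma called 51 genes, and the differences of Prkcsh (-0.041), Erp29 (-0.062), Mlec (0.061) and Edem3 (0.20) reversed. Without wild-type 1 and 2, it called 6828 genes and 4 of the 7 members, and Canx (-0.046), its model Canx-201 (-0.065), Clgn (-0.88) and the share of the leading Calr model (0.926 percentage points) reversed. Within the shared title series it called 6010 genes and 4 members, and outside it 1022 genes and 1 member, with Prkcsh at -0.081. With the title series as a covariate the counts were 3597 genes and 4 members. With the length slope as a covariate 127 genes were called and Prkcsh was at -0.014.

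Among transcripts, 3 were called with no filter, 2 when wild-type 3 and 4 were left out, 6778 when wild-type 1 and 2 were, and 0 to 1 with a single library left out. Leaving out a single library gave a range of -0.44 to 1.29 for Clgn. In summed FPKM the Calr difference of -0.13 reached the smallest exact permutation p (0.0286). The causes were not tested. No paired analysis was possible because the labels give no replicate number that both groups share.

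With 3 and 4 libraries, differences of the size seen in Calr (-0.15, SE 0.15) are not resolved, and fits on 1 mutant library take their spread from wild-type 1 and 2 alone. Splits by wild-type pair were chosen with the earlier results known.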
